A study of Mus musculus with 21 samples.

Results

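The collagen chains are the genes of the deposited table whose symbol has the form Col, a number, a and a number, such as Col1a1, and the rule finds 42 of 16318 genes. They were read in whole brains of 21 SAMP8 mice, a senescence-accelerated strain used as a model of early memory decline. Mice were dosed subcutaneously every other day for 8 weeks from 4 months of age and were 6 months old at the end. Controls were 12 mice given phosphate-buffered saline (PBS), 6 female and 6 male. The other 9 mice, 3 female and 6 male, received 1 mg/kg HsTX1[R14A], a scorpion toxin peptide analogue that blocks the potassium channel Kv1.3 and that some labels spell HxTX1[R14A]. All 21 were SAMP8 mice perfused through the heart with cold PBS before the brain was taken, and no other strain enters the comparisons. Each library is 1 mouse.

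Collagens are secreted or membrane-anchored proteins in which chains wind around each other in a helix, and every winding segment repeats glycine followed by 2 further residues. Fibrillar collagens such as types I, III and V give connective tissue its tensile strength, and in the brain they are made mainly by fibroblasts of the meninges and of the larger vessels. Type IV collagen forms the sheet of the basement membrane around endothelium and pericytes, with types XV and XVIII at its margin. A further set, among them types XIX, XXIII, XXIV and XXV, includes chains known from neurons, where some are linked to synapse formation, and Col25a1 encodes the collagen found in amyloid plaques.

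The glycine repeat is shown first because it is the feature that the 42 chains share. The rule picks genes that are named as collagens, so the presence of the repeat in them follows from the naming. Glycine is coded by GGN, so the repeat appears in the transcript as GGN followed by 6 further bases. In the longest GENCODE M21 transcript of each chain, the longest uninterrupted run of this unit with no stop codon held a median of 58.5 units (range 23 to 344), and all 42 chains held at least 10. Of 16197 other genes of the table, 37 (0.228%) had such a run. The first 6 units of the run are given for 4 chains, with the glycine codons in capitals. Col1a1 stands for the fibrillar and Col4a1 for the basement membrane chains, and Col25a1 and Col9a1 are the chains that passed the treatment test.
Col1a1: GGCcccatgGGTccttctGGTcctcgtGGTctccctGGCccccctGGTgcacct
Col4a1: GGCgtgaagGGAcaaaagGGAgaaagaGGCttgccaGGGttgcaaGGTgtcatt
Col25a1: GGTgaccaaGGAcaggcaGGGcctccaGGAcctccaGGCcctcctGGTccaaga
Col9a1: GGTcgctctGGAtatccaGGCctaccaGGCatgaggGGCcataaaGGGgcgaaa
The stretches are bases 647 to 700 of the Col1a1 transcript, 354 to 407 of Col4a1, 1146 to 1199 of Col25a1 and 1497 to 1550 of Col9a1. The unbroken run held 338 units in Col1a1 and 344 in Col3a1. It held 40 in Col4a1 and 37 in Col25a1, whose repeat is broken into shorter stretches. The fibrillar chains of types I, II, III, V and XI all lay between 337 and 344 units, while Col24a1 had 216.

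Col4a1 and Col4a2, which encode the chains of the common type IV collagen, lie head to head on chromosome 8 (GRCm38, chr8:11198423-11312826 on the minus strand and chr8:11312805-11449287 on the plus strand). Their promoter windows in RefSeq, 250 bases before to 50 bases after each start, overlap by 78 bases, and the annotated starts lie 21 bases apart. The window of Col4a2 is chr8:11312555-11312854, plus strand, with the part shared with the Col4a1 window in capitals.
Col4a2 promoter window: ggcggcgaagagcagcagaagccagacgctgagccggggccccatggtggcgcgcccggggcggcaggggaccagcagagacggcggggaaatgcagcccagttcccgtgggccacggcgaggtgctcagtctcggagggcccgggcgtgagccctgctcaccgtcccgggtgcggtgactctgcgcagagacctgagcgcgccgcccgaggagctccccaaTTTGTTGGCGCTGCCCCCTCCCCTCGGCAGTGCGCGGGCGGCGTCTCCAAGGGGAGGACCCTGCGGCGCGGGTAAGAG
It is 73.7% G and C and holds 33 CG dinucleotides in 300 bases. The letters GGGCGG, read on either strand, occur in 23 of 36 promoter windows of collagen chains (63.9%) and in 35.7% of all 32851 windows of the same length. The letters CCAAT occur in 12 of 36 (33.3%) against 37.4%, and TATAAA in 3 of 36 (8.33%) against 13.6%. The 36 windows belong to 33 of the 42 chains.

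The depth of the libraries set how well a chain could be read. Total estimated counts lay between 14917171 and 47613770 per mouse (PBS, 14917171 to 36207536; HsTX1[R14A], 17552394 to 47613770). The median count of a chain over the 21 mice ran from 9 for Col28a1 to 1251 for Col6a1, and 11 of 42 chains had fewer than 10 counts in at least 1 mouse. The libraries also differed in how a gene's count depended on transcript length. The length slope, the change in log2 CPM relative to the mean of all mice per doubling of transcript length, had a median of -0.02 in PBS (range -0.38 to 0.15) and 0.15 in HsTX1[R14A] (range -0.14 to 0.24), with an exact permutation p = 0.00617 within sex (two-sided, sex-averaged difference 0.20). PBS mice 103 and 90 had the lowest slopes (-0.38 and -0.34). The slope on GC content, per 10 percentage points, differed in the same direction (0.18, exact permutation p = 0.0112, two-sided). Collagen transcripts are long and rich in G and C, with a median of 6084 bases and 55.1% against 3286 bases and 49.6% for all genes tested. The count columns carry 2 forms of sample name, 1 for 15 mice (10 PBS and 5 HsTX1[R14A]) and the other for 6 mice (2 PBS and 4 HsTX1[R14A]). What the name form stands for is not given in the sources used here.

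The most abundant chain per length was Col6a1, the beaded-filament chain of type VI collagen, at a mean of 12.4 CPM per kilobase of longest transcript. Col25a1, a transmembrane collagen of neurons, followed at 7.63, ahead of Col4a2 at 3.66, Col9a3 at 3.17 and Col4a1 at 2.79. Col6a4 was lowest at 0.0568. Among the 5 meningeal fibrillar chains, Col1a2 reached 2.21, Col1a1 1.35, Col3a1 0.788, Col5a1 0.731 and Col5a2 0.430. Lengths enter these levels, so an order between genes depends on the transcript used. Summed over the 42 chains, the level was 53.3 ± 13.2 CPM per kilobase in PBS (mean ± SD, n = 12) and 59.3 ± 14.98 in HsTX1[R14A] (n = 9). The 4 neuronal chains took a median of 19.8% of that sum in PBS and 22.9% in HsTX1[R14A]. The 4 vascular basement membrane chains took 13.1% and 15.98%, and the 5 meningeal fibrillar chains 10.9% and 7.80%. By structure, the type VI chains held the largest median share in PBS, 27.5%, before the fibrillar class with 18.4% and the fibril-associated class with 18.2%. In whole brain, fewer cells of a type and less RNA per cell cannot be told apart.

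The first comparison asked which chains differed between HsTX1[R14A] and PBS mice, with sex in the model. At a false discovery rate (FDR) of 0.05 in edgeR's quasi-likelihood test, Col25a1 rose and Col9a1 fell. The other 40 chains did not pass, so 2 of 42 (4.76%) were called beside 5121 of 16285 genes tested (31.4%). Higher calls made up 15.4% of all genes and lower calls 16%. At an unadjusted p under 0.05 there were 4 chains (9.52%) against 46.3% of all genes. The log2 fold change was positive for 27 chains and negative for 15, with a median of 0.14 beside -0.01 over all genes. The chains were more variable between mice than most genes: edgeR's biological coefficient of variation had a median of 0.313 over the chains and 0.184 over all genes, and 39 of 42 chains lay above the latter. The median standard error of the log2 fold change was 0.21 for the chains and 0.12 for all genes.

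**Figure D1:**
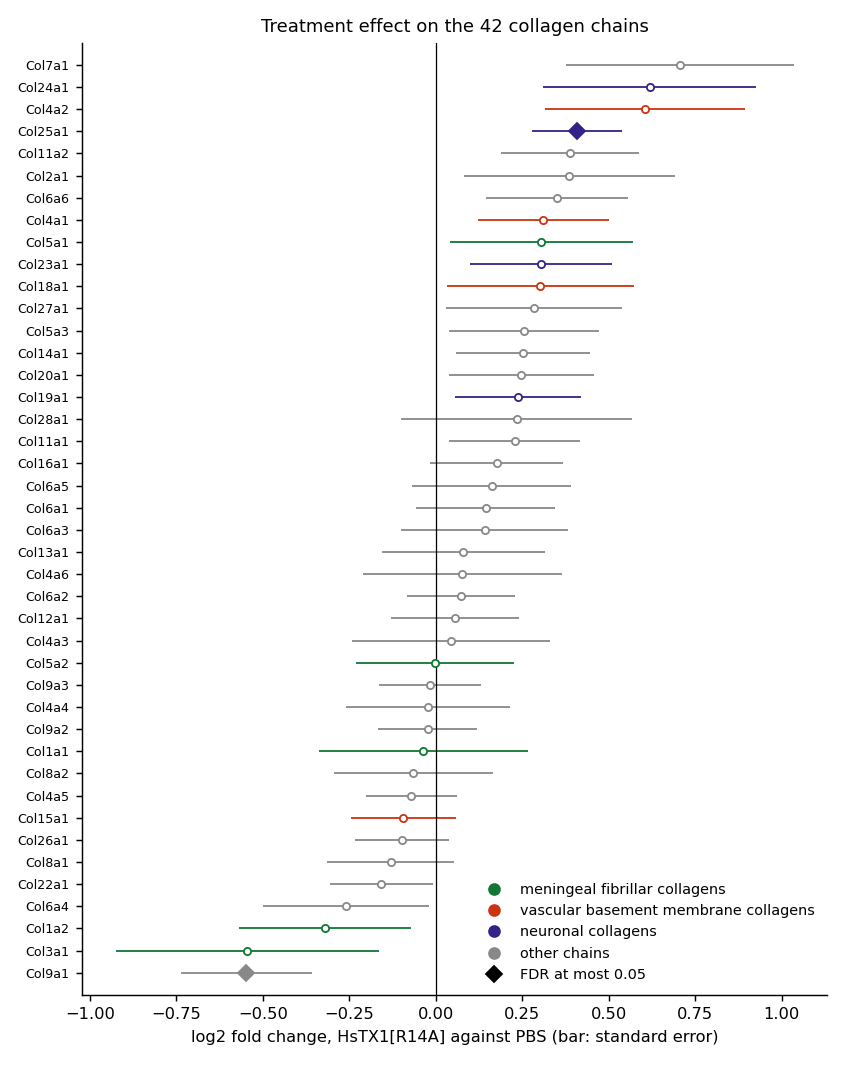
Log2 fold change of each of the 42 collagen chains, HsTX1[R14A] (9 mice) against PBS (12 mice), from edgeR with sex in the model. Bars are standard errors and filled diamonds passed an FDR of 0.05. Col25a1 (0.41) and Col9a1 (-0.55) are the filled points, and larger estimates such as Col7a1 (0.70) have wider bars.

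Col25a1 (chr3:130131501-130599877, GRCm38) had 28.6, 43.8 and 67.3 CPM as lowest, median and highest value in PBS mice, and 40.7, 52.5 and 93.1 CPM in HsTX1[R14A] mice. The ranges overlapped, and 7 of 9 treated mice lay above the PBS median. The log2 fold change was 0.41 ± 0.13 (SE; FDR = 0.0272, edgeR), or 1.33-fold. The call was lost without PBS mice 103 and 90 (0.35, FDR = 0.0574) and with the length slope as a term (0.15, FDR = 0.651). It was lost as well without a sex term (0.36, FDR = 0.0794), with the name form as a term (0.40, FDR = 0.0537) and with each library's trend with length and GC content removed (0.26, FDR = 0.0806). It was also lost when mouse 90 (FDR = 0.0522), mouse 71 (FDR = 0.0698) or mouse 88 (FDR = 0.0559) was left out. Among the 6 mice of the less common name form the estimate was -0.04, and among the other 15 it was 0.56 (edgeR FDR = 0.0634).

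Col9a1, a chain of the fibril-associated type IX collagen of cartilage and eye, was rare. It had a median of 15 counts, with 0.416, 0.581 and 0.820 CPM as lowest, median and highest in PBS and 0.178, 0.455 and 0.615 CPM in HsTX1[R14A]. Of the 9 treated mice, 8 lay below the PBS median, with overlapping ranges. The log2 fold change was -0.55 ± 0.19 (FDR = 0.0349, edgeR). Its partners Col9a2 (-0.02) and Col9a3 (-0.02), far more abundant, did not pass. The call on Col9a1 was lost when any 1 of 7 mice (101, 83, 90, 72, 74, 81 or 92) was left out, with an edgeR FDR of at most 0.067. It was lost as well with the name form (-0.55, FDR = 0.0591) or the length slope (-0.69, FDR = 0.309) as a term. With the slope term 0 of 16285 genes passed, and the unadjusted edgeR p of Col9a1 was 0.00783, beside 0.00846 without that term. Col9a1 did pass with each library's trend with length and GC content removed (-0.66, FDR = 0.0245). The gene did not enter the test that asked for at least 10 counts in every mouse. In the 15 and in the 6 mice of each name form the estimates were -0.41 and -0.87, neither past the threshold.

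**Figure D2:**
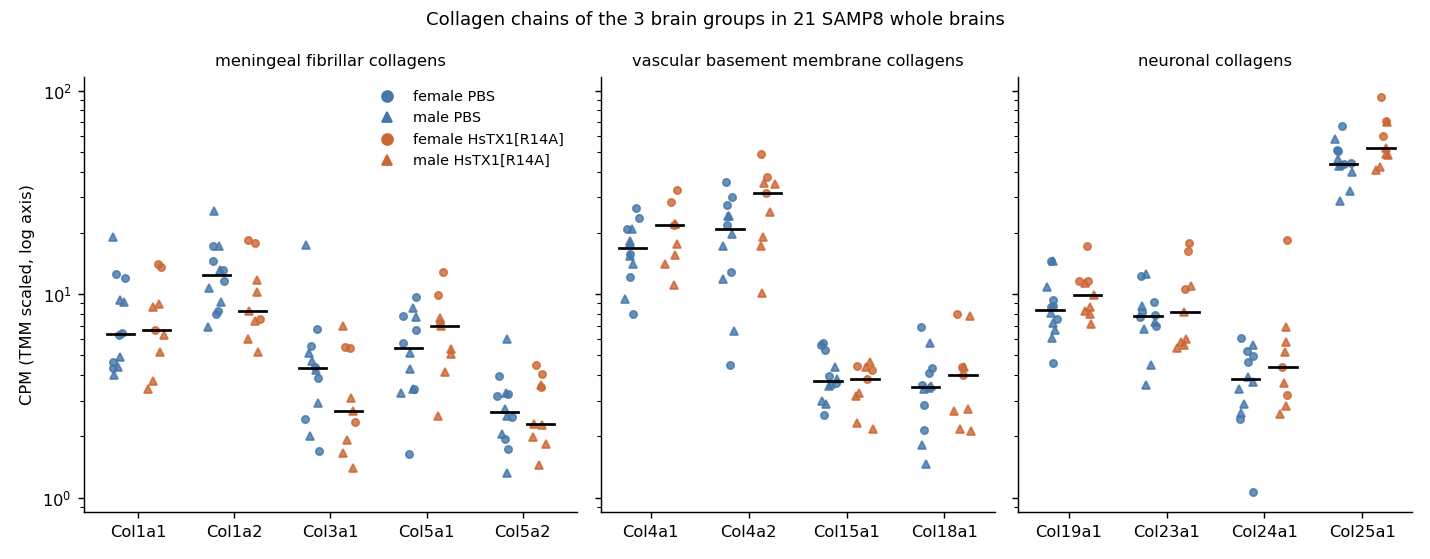
CPM on a log axis of the 13 chains of the meningeal fibrillar, vascular basement membrane and neuronal groups in each of 21 mice, by treatment (colour) and sex (symbol). Black bars are medians. Values of treated and PBS mice overlap for each of the 13 chains, and PBS mouse 83 is the highest for Col1a1, Col1a2, Col3a1 and Col5a2.

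None of the 5 meningeal fibrillar chains passed the treatment test, and their median log2 fold change was -0.04. Col3a1, the type III chain of pliable tissue, had 1.70, 4.32 and 17.3 CPM (lowest, median, highest) in PBS and 1.40, 2.68 and 6.98 CPM in HsTX1[R14A]. The highest PBS value belonged to male mouse 83. Its log2 fold change was -0.54 ± 0.38 (FDR = 0.262, edgeR), with 6 of 9 treated mice below the PBS median. Col1a2, the second type I chain, had 6.88, 12.4 and 25.6 CPM in PBS and 5.18, 8.23 and 18.4 CPM in HsTX1[R14A], and 7 of 9 treated mice lay below the PBS median (-0.32 ± 0.25, FDR = 0.313). Col1a1, its partner in type I collagen, was nearly level between the groups, with medians of 6.39 CPM in PBS and 6.66 CPM in HsTX1[R14A] (-0.04 ± 0.30). Col5a1 (0.30 ± 0.26) and Col5a2 (0.00 ± 0.23) nucleate fibrils and did not pass either. These chains spread widely within a group, by 10.2-fold from the lowest to the highest PBS mouse for Col3a1 (4.99-fold in HsTX1[R14A]) and by 4.76-fold for Col1a1 (4.09-fold). Without mouse 83 the estimates were -0.15 for Col3a1, -0.15 for Col1a2, 0.21 for Col1a1 and 0.20 for Col5a2, and without treated female 98 that of Col5a1 was 0.17. Markers of meningeal fibroblasts other than collagens were measured beside them, mostly transporters and transcription factors, with Aldh1a2, Igf2 and Crabp2 in addition. Of 12 tested, 2 fell (Slc6a20a and Crabp2) and none rose (16.7%, beside 31.4% of all genes called). Their median log2 fold change was -0.46. Their summed level ran from 19.5 to 64.9 CPM per kilobase in PBS and from 19.3 to 50.2 in HsTX1[R14A], and no marker was at 0. Their part in the fibrillar values was not tested.

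For the 4 vascular basement membrane chains, no call was made, and the median log2 fold change was 0.31. Col4a2 had 4.47, 20.8 and 35.7 CPM (lowest, median, highest) in PBS and 10.2, 31.3 and 48.7 CPM in HsTX1[R14A]. The 2 lowest values of all belonged to PBS mice 103 and 90 and the highest to treated female 98. Its log2 fold change was 0.60 ± 0.29 (unadjusted p = 0.0493, FDR = 0.107, edgeR) and 0.43 without mice 103 and 90. Col4a1 followed it mouse by mouse, from 7.95 to 26.6 CPM in PBS and from 11.1 to 32.4 CPM in HsTX1[R14A] (0.31 ± 0.19, FDR = 0.199). Col18a1, a heparan sulfate bearing collagen that yields endostatin, showed 0.30 ± 0.27, and 0.10 without treated male 74 or 0.14 without treated female 71. Col15a1, the related chain of capillary and muscle basement membranes, showed -0.09 ± 0.15. With the length slope as a term, the estimates of all 4 were below 0, at -0.39 for Col4a2, -0.28 for Col4a1, -0.15 for Col18a1 and -0.47 for Col15a1. When each library's trend with length and GC content was removed, Col15a1 passed at -0.41 (FDR = 0.0194). Of 10 endothelial markers, 2 rose (Flt1 and Kdr) and none fell (20%, beside 31.4% of all genes called), with a median of 0.31. Of 10 mural markers, 2 rose (Abcc9 and Cspg4) and none fell (20%), with a median of 0.06 and 4 negative estimates. The summed endothelial level was 53.4 to 78.9 CPM per kilobase in PBS and 56.5 to 81.7 in HsTX1[R14A], and the mural level was 46.4 to 62.0 and 48.1 to 61.2. No marker of either list was at 0, and their part in the type IV values was not tested.

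All 4 neuronal chains had positive estimates (median 0.36), and Col25a1 alone among them was called. Col24a1, a fibrillar collagen of developing bone and cortex, had 1.06, 3.81 and 6.06 CPM (lowest, median, highest) in PBS and 2.58, 4.37 and 18.5 CPM in HsTX1[R14A]. Its estimate of 0.62 ± 0.31 (FDR = 0.118) rested on treated female 98, the only mouse above 7 CPM, and dropped to 0.15 without that mouse. Col23a1, a transmembrane collagen, had 3.57 to 12.6 CPM in PBS and 5.44 to 17.8 CPM in HsTX1[R14A] (0.30 ± 0.21, and 0.20 without treated female 72). Col19a1, which marks interneurons that form inhibitory synapses, had 4.61 to 14.6 CPM in PBS and 7.15 to 17.3 CPM in HsTX1[R14A] (0.24 ± 0.18, and 0.12 without treated female 98 or 0.36 without PBS male 101). Of 10 neuronal markers 2 rose (Syt1 and Eno2) and none fell (20%, beside 31.4% of all genes called). Their median was 0.19. Their summed level was 1391 to 2110 CPM per kilobase in PBS and 1716 to 2468 in HsTX1[R14A], with no marker at 0, and their part in the Col25a1 call was not tested. Choroid plexus markers, a further source of basement membrane, spread far more, from 47.7 to 924 CPM per kilobase in PBS and from 41.2 to 668 in HsTX1[R14A], with 0 of 8 called.

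Outside the 3 brain groups, Col7a1, the anchoring fibril collagen of skin, had the largest positive estimate (0.70 ± 0.33, unadjusted p = 0.0442, FDR = 0.0987, edgeR). It had 0.284, 1.30 and 2.69 CPM (lowest, median, highest) in PBS and 0.809, 1.502 and 5.77 CPM in HsTX1[R14A], with the highest value again in mouse 98, and it passed when PBS mouse 83 was left out (0.91, FDR = 0.0350) but was 0.40 without mouse 98. Col11a2, a minor fibrillar chain, had 3.19, 9.74 and 15.4 CPM in PBS and 5.77, 11.4 and 18.9 CPM in HsTX1[R14A] (0.39 ± 0.20, FDR = 0.129), with 7 of 9 treated mice above the PBS median. Col6a1 gave 0.14 ± 0.20, with 49.2 ± 16.6 CPM in PBS and 53.1 ± 20.9 CPM in HsTX1[R14A] (SD). Col9a3 gave -0.02 ± 0.15, Col22a1 -0.16 ± 0.15 and Col6a4 -0.26 ± 0.24. The estimate of Col6a1 was -0.04 without mouse 98, and that of Col6a4 was -0.12 without PBS male 91. By structural class, 0 of 11 fibrillar, 0 of 6 type IV and 0 of 6 type VI chains were called, beside 31.4% of all genes. Among the fibril-associated chains 1 of 9 was lower (Col9a1), and among the transmembrane chains 1 of 3 was higher (Col25a1). Over all genes 16% were lower and 15.4% higher, so these single chains are no result about their classes.

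Chains that can assemble into the same molecule were then compared within each library. Scaling between libraries drops out there, but a library's trend with length or GC content does not. The ratio is that of the counts, given per length. PBS mice 103 and 90, with the lowest length slopes, had the lowest ratios of Col1a1 over Col1a2 (0.341 and 0.372). They also had the highest of Col4a1 over Col4a2 (1.72 and 1.41). GC content was 58.9% for Col1a1, 55.7% for Col1a2, 57.7% for Col4a1 and 60.6% for Col4a2. The part of these trends in the ratios was not tested. Col1a1 over Col1a2 was 0.341, 0.517 and 0.780 (lowest, median, highest) in PBS and 0.424, 0.688 and 0.796 in HsTX1[R14A], where 8 of 9 mice lay above the PBS median. The log2 difference was 0.37 (exact permutation within sex, two-sided, p = 0.0325, adjusted over 5 pairs 0.107). Col4a1 over Col4a2 went the other way, with 0.706, 0.822 and 1.72 in PBS against 0.610, 0.685 and 1.06 in HsTX1[R14A] and 8 of 9 mice below the PBS median (-0.36, exact permutation p = 0.0426, adjusted 0.107). Neither passed after adjustment, but Col1a1 over Col1a2 did when treated male 92 was left out (0.43, exact permutation, adjusted p = 0.0466). Without PBS mice 103 and 90 the differences were 0.25 and -0.21. The differences for Col5a1 over Col5a2 (0.32), Col6a1 over Col6a2 (-0.01) and Col8a1 over Col8a2 (0.07) were within the spread between mice, with adjusted p of 0.495, 0.961 and 0.886 by exact permutation. Per length, Col6a1 exceeded Col6a2 in every mouse, by 3.21 to 8.90 times, although 1 molecule of type VI collagen takes both chains. With the shortest instead of the longest annotated transcript, the median ratio over all mice went from 6.01 to 21.4 for Col6a1 over Col6a2 and from 0.930 to 0.134 for Col8a1 over Col8a2. It crossed 1 for the other pairs. The median went from 0.652 to 1.08 for Col1a1 over Col1a2, from 0.765 to 1.44 for Col4a1 over Col4a2 and from 1.74 to 0.751 for Col5a1 over Col5a2. Which chain of these pairs is the higher thus depends on the transcript used. For type VIII both medians were below 1. Single mice still ran from 0.607 to 1.575 with the longest transcripts, on both sides of 1.

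Across the 12 PBS mice, partner chains moved together. Sex was not taken into account in any of the correlations, so differences between the 6 females and 6 males enter them. Col4a1 and Col4a2 were the closest, with Pearson's r = 0.96 (permutation p = 1e-05, the smallest these permutations give, adjusted over 10 relations 0.0001) and Spearman's rho = 0.97 (adjusted p = 0.0001). Without the 2 mice farthest from the median, 103 and 90, r was 0.90. Col1a1 and Col1a2 had r = 0.87 (permutation p = 0.00024, adjusted 0.0008) and rho = 0.84 (permutation p = 0.0011, adjusted 0.00367), and r = 0.80 without mice 83 and 105. Col1a1 with Col3a1 had r = 0.73 (permutation p = 0.00514, adjusted 0.0103) and rho = 0.63 (adjusted 0.0408), and r = 0.59 over the 10 mice left without those (permutation p = 0.0731, adjusted 0.121). Col1a1 with Col4a1 had r = 0.61 (permutation p = 0.0346, adjusted 0.0433) and rho = 0.63 (adjusted 0.0408), and r = 0.57 over those 10 mice (permutation p = 0.0845, adjusted 0.121). Without mice 83 and 105 neither of these 2 relations passed the threshold. The neuronal chains Col19a1 and Col25a1 had r = 0.04 (permutation p = 0.891) and rho = 0.13 (permutation p = 0.699), and r = 0.39 without mice 103 and 101 (permutation p = 0.262). Within the 10 PBS mice of the more common name form, r was 0.97 for the type IV pair, 0.85 for the type I pair and 0.04 for Col19a1 with Col25a1. In those mice it was 0.69 for Col1a1 with Col3a1 (permutation p = 0.0225, adjusted 0.0322). For Col1a1 with Col4a1 it was 0.68 (permutation p = 0.0304, adjusted 0.0337), so both passed there. The other name form held 2 PBS mice and gives no value.

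Markers and the length slope moved with the chains too. The mean of the fibroblast markers followed Col1a1 (r = 0.73, permutation p = 0.00794, adjusted 0.0130; rho = 0.77, adjusted 0.0102), at r = 0.50 without the 2 farthest mice (permutation p = 0.143) and r = 0.68 within the common name form. The mean of the endothelial markers followed Col4a1 (r = 0.83, permutation p = 0.0008, adjusted 0.002; rho = 0.80, adjusted 0.00685), at r = 0.64 without the farthest 2 (permutation p = 0.0469, adjusted 0.0938, past the threshold only before adjustment) and 0.93 within the name form. The length slope of the library followed Col4a1 more closely still (r = 0.93, permutation p = 5e-05, adjusted 0.00025; rho = 0.86, adjusted 0.00355) and kept r = 0.81 without mice 103 and 90 (permutation p = 0.00565) and 0.97 within the name form. With Col25a1 it had r = 0.72 (permutation p = 0.00911, adjusted 0.0130; rho = 0.72, adjusted 0.0178), 0.80 without the same mice and 0.70 within the name form. With Col1a1 it had r = 0.52 (permutation p = 0.0863, adjusted 0.0959) and rho = 0.48 (adjusted 0.127). That r was 0.29 without mice 103 and 90 (permutation p = 0.417) and 0.71 within the name form (permutation p = 0.0225, adjusted 0.0322). Over all 42 chains the correlation with the slope had a median of 0.68 and exceeded 0.5 for 29 chains (69.0%), against a median of 0.06 and 35.0% over all genes tested. It ran from -0.34 for Col28a1 to 0.97 for Col4a2, with -0.05 for Col3a1 and 0.15 for Col1a2. The slope is computed from the same libraries, and genes of one library are not independent.

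**Figure D3:**
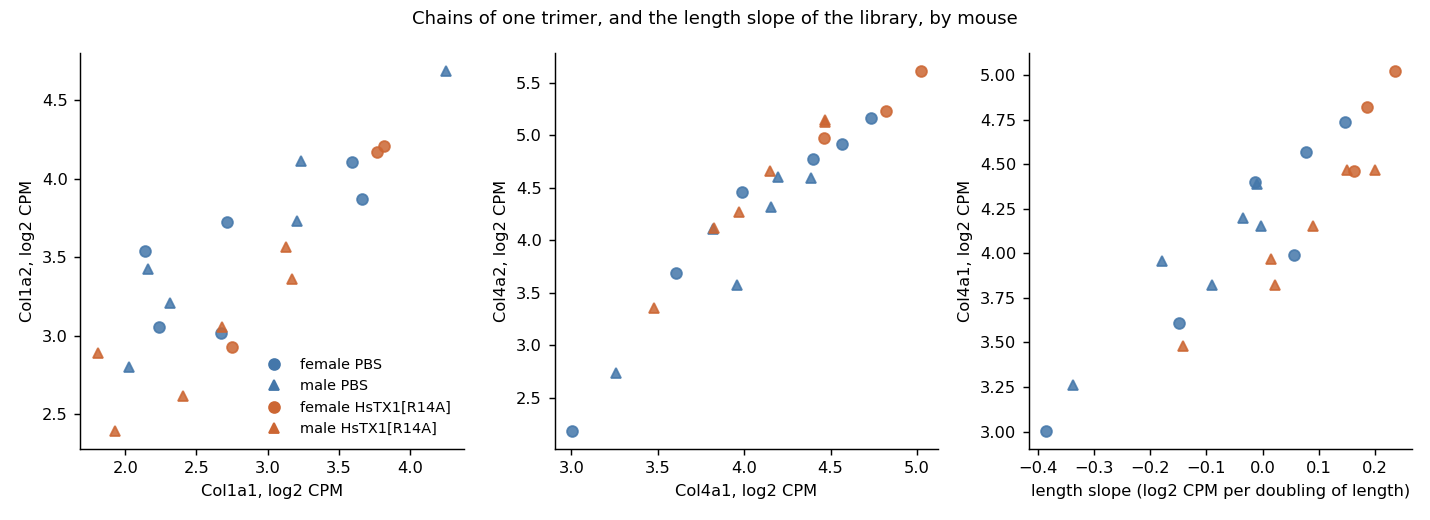
Log2 CPM of Col1a2 against Col1a1 (left), of Col4a2 against Col4a1 (middle) and of Col4a1 against the length slope of the library (right), 1 point per mouse, by treatment (colour) and sex (symbol). In PBS mice r was 0.87, 0.96 and 0.93, and in the 9 treated mice it was 0.92, 0.97 and 0.95.

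The second labelled factor is sex. No chain passed an FDR of 0.05 for sex, beside 9 of 16285 genes (0.0553%). At an unadjusted p under 0.05 there were 7 chains (16.7%) against 10.7% of all genes, and limma/voom and DESeq2 also called 0 chains. Estimates were lower in males for 40 of 42 chains (95.2%), against 51.4% of all genes, with a median log2 difference of -0.30 against -0.01. The exceptions were Col9a1 (0.13) and Col3a1 (0.08). Col4a3, a type IV chain of specialised basement membranes such as that of the kidney glomerulus, had the smallest p. It had 0.138, 0.872 and 1.30 CPM (lowest, median, highest) in females and 0.199, 0.445 and 0.703 CPM in males (-0.94 ± 0.28, unadjusted p = 0.00294, FDR = 0.449, edgeR), at a median of 15 counts. Col25a1 had 42.9, 51.1 and 93.1 CPM in females and 28.6, 44.4 and 70.3 CPM in males (-0.39 ± 0.13, FDR = 0.449). Col23a1 had 6.96, 9.13 and 17.8 CPM in females and 3.57, 6.37 and 12.6 CPM in males (-0.62 ± 0.20, FDR = 0.449). The length slope had medians of 0.02 in PBS females, -0.06 in PBS males, 0.19 in treated females and 0.06 in treated males. With the slope as a term, 29 chains were below 0 in males, with a median of -0.07.

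The treatment difference was also taken within each sex. In females it was positive for 37 of 42 chains, with a median difference in log2 CPM of 0.48, and in males for 19 of 42, with a median of -0.06. The medians over all genes were -0.01 in both sexes. The interaction term, which tests this contrast chain by chain, called 0 chains and 0 genes (0% of 16285), with a lowest adjusted p of 1.00 in edgeR and 0 calls also in limma/voom and DESeq2. At an unadjusted p under 0.05 there were 4 of 42 chains and 263 of 16285 genes. The interaction estimate was below 0 for 37 chains (88.1%), beside 45.1% of all genes. Col22a1, a collagen of tissue junctions, had the smallest p (-0.87 ± 0.24, unadjusted p = 0.00177). The 3 treated females had 1.20, 1.51 and 1.57 CPM beside 0.961 to 1.42 CPM in PBS females, while treated males had 0.820 to 1.16 CPM and PBS males 1.24 to 1.98 CPM. Col1a2 was next among the named chains (-1.03 ± 0.47, unadjusted p = 0.0387), with 7.55, 17.9 and 18.4 CPM in the treated females, 8.02 to 17.1 CPM in PBS females, 5.18 to 11.8 CPM in treated males and 6.88 to 25.6 CPM in PBS males. The 3 treated females had length slopes of 0.24, 0.19 and 0.16, among the 4 highest of the 21 libraries, so their sex-specific differences and the slope cannot be told apart with 3 mice. With the slope as a further term, the median interaction estimate of the chains was -0.36, beside -0.46 without it. In that edgeR fit 5 chains and 540 of 16285 genes had an unadjusted p under 0.05, and 0 chains were called.

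**Figure D4:**
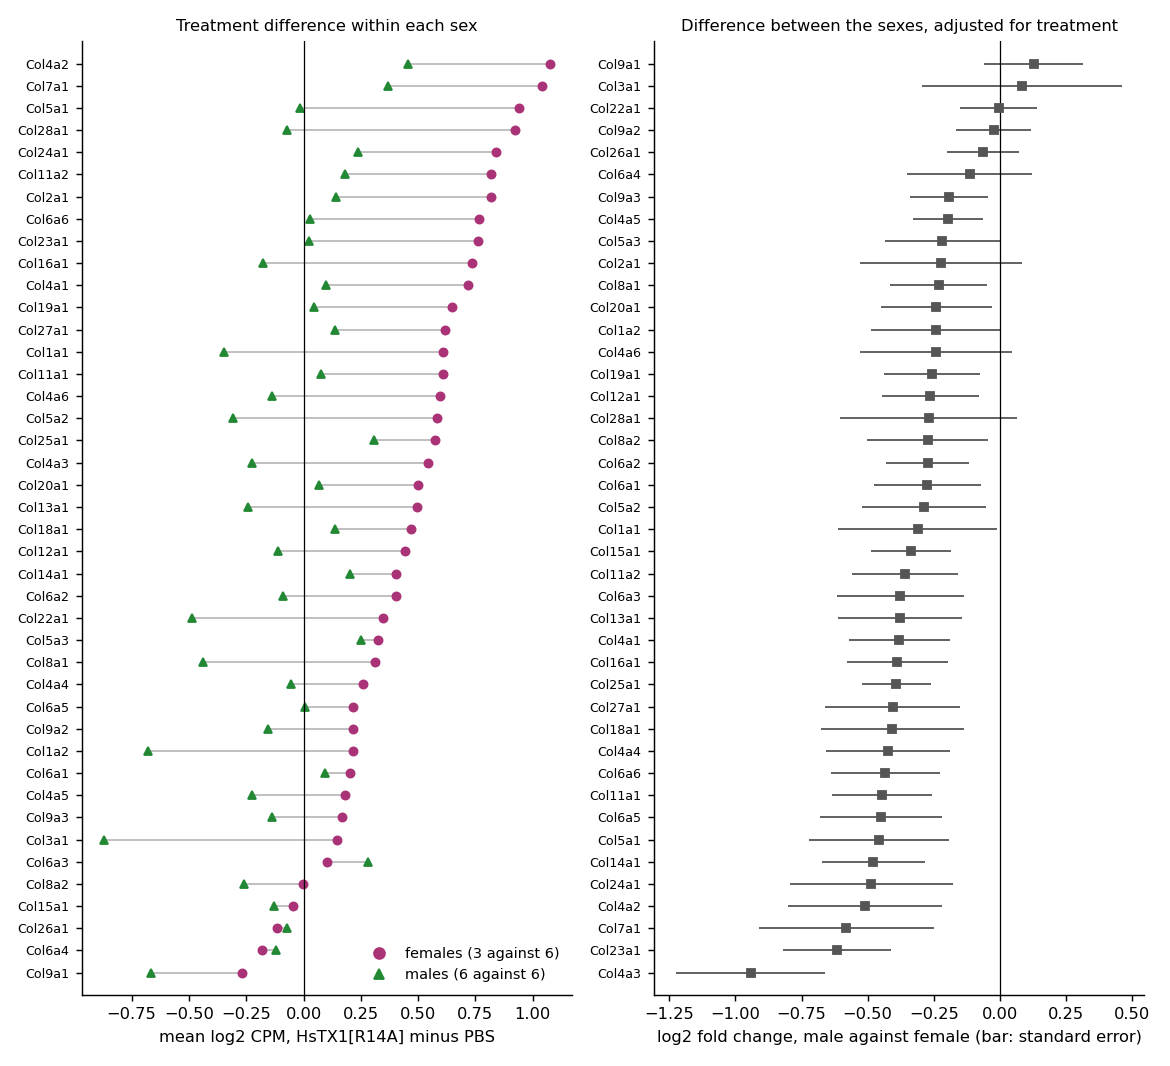
Left, difference in mean log2 CPM between HsTX1[R14A] and PBS mice within females (circles, 3 against 6) and males (triangles, 6 against 6) for each chain. Right, log2 fold change of males against females with treatment in the model, with standard errors. Circles lie right of 0 for 37 chains and squares left of 0 for 40 chains.

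The genes that modify, export, bind or cut collagen were read from 7 lists. Of 80 such genes tested, 13 rose and 3 fell, beside 31.4% of all genes called. Among 15 hydroxylases, glycosyltransferases and their helpers, which modify proline and lysine in the new chain, 4 rose and none fell (median log2 fold change 0.14). P4ha1, a prolyl 4-hydroxylase subunit, went from 47.6 ± 5.99 CPM (SD, n = 12) to 59.0 ± 4.93 CPM (n = 9), with all 9 treated mice above the PBS median (0.34 ± 0.06, FDR = 0.0152, edgeR). P4ha2, its paralogue, rose by 0.43 ± 0.11 (FDR = 0.0167). The prolyl isomerase Ppib (-0.26 ± 0.11, FDR = 0.0603) and P3h4 (-0.21 ± 0.12) had the smallest p of the negative estimates. P4ha1 also passed without PBS mice 103 and 90 but not with the length slope as a term, under which 0 of 16285 genes passed. Among 12 genes of folding, export and trimming, 3 rose. They include Tll1, a protease that trims procollagen (0.80 ± 0.19, FDR = 0.0164), and Mia3, which packs collagen into large carriers (0.26 ± 0.08, FDR = 0.0252). The procollagen enhancers Pcolce2 (-0.36 ± 0.14, FDR = 0.0564) and Pcolce (-0.48 ± 0.26) did not pass. In DESeq2, Pcolce2 (FDR = 0.0440) and Ppib (FDR = 0.0496) passed, and Pcolce2 also passed in edgeR with at least 10 counts in every mouse (FDR = 0.0499). Of the 4 lysyl oxidases, which cross-link fibrils, 0 passed, with Lox at -0.57 ± 0.35, Loxl2 at -0.42 ± 0.27, Loxl3 at 0.09 and Loxl1 at 0.04.

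Basement membrane partners and receptors were read the same way. Of 21 laminins and related genes, 3 rose and none fell, with a median of 0.29. Lamb1, a laminin beta chain, went from 10.04 ± 2.79 to 14.2 ± 4.35 CPM (0.54 ± 0.15, FDR = 0.0193, edgeR). Lamb3 (-0.17 ± 0.26) and Fbln1 (-0.10 ± 0.23) had the smallest p of the negative estimates. Of 9 receptors, 1 fell: Lair1, an inhibitory collagen receptor of immune cells, went from 11.4 ± 1.67 to 8.42 ± 1.62 CPM (-0.47 ± 0.10, FDR = 0.0152). Integrin subunits Itga1 (0.36 ± 0.15, FDR = 0.0658) and Itgb1 (-0.09 ± 0.07) and the adhesion receptor Adgrg1, which binds type III collagen (0.53 ± 0.22, FDR = 0.0676), did not pass in edgeR, while Itga1 (FDR = 0.0412) and Adgrg1 (FDR = 0.0443) passed in DESeq2. Of 8 microglial markers 3 fell and none rose (37.5%, beside 31.4% of all genes called), and their part in the Lair1 value was not tested. Of 8 small leucine-rich proteoglycans, which coat fibrils, 1 fell: Omd went from 1.92 ± 0.907 to 0.978 ± 0.606 CPM (-0.95 ± 0.30, FDR = 0.0279), while Ogn (-0.56 ± 0.27, FDR = 0.107) and Prelp (0.38 ± 0.25) did not pass. Of 11 collagen-cleaving proteases and their inhibitors, 3 rose and 1 fell. Timp2, an inhibitor, rose by 0.45 ± 0.14 (FDR = 0.0283) and the membrane protease Mmp15 by 0.72 ± 0.25 (FDR = 0.0357). Ctsk, a lysosomal collagenase, fell from 2.10 ± 0.579 to 1.47 ± 0.362 CPM (-0.49 ± 0.17, FDR = 0.0371), and Timp4 gave -0.32 ± 0.16. In DESeq2, 17 of the 80 genes rose and 5 fell. Without PBS mice 103 and 90, 7 rose and 1 fell. With the length slope as a term 0 passed, and within either name form 0 passed.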

How the data were processed

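Whole-brain RNA libraries of 21 mice were analysed. The authors aligned reads to GRCm38 with STAR and quantified them with Salmon in the nf-core pipeline, and deposited estimated counts for 16318 genes, which were rounded to whole numbers here. How the authors arrived at these genes is not given in the sources used here. The study's methods name a stranded library kit and the labels a different kit. Reads inside the overlap of genes on opposite strands (Col4a1 and Col4a2, Col9a3, Col18a1) may thus not be separable. For Col4a1 and Col4a2 this overlap is only the short stretch between their starts, which lie 21 bases apart. Col20a1 overlaps a gene on its own strand. The deposited table also holds the authors' fold changes and p-values for their own comparisons and 53 per-sample columns (37 of CPM, 16 of counts of other libraries), none of which was used.

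edgeR 4.0.16 (R 4.3.3) was run on all genes kept by filterByExpr (16285, among them all 42 chains), with TMM scaling, robust quasi-likelihood, sex and treatment in the model and Benjamini-Hochberg adjustment, threshold 0.05. Standard errors were taken from the log2 fold change and its F statistic. CPM are TMM scaled. Log2 CPM used a prior count of 2 and ratios a pseudocount of 1 count. Ratios were tested by exact permutation of treatment within sex (77616 labelings) and correlations with 100000 permutations without regard to sex. Length is that of the longest GENCODE M21 transcript (GRCm38). Promoter windows come from RefSeq (GRCm38.p6). The fit was tested on simulated data. Alternatives were limma 3.58.1 (voom), DESeq2 1.42.0, other scalings, filters and terms, and subsets of mice. Members and lists were chosen with earlier results of these data known. Named were the 13 chains of the 3 brain groups, the 5 chains with the smallest treatment p in each direction, the 5 most abundant per length, the 3 with the smallest p for sex, and of each partner list the 2 genes with the smallest p in each direction, of which 1 is not reported here. Labels give 1 library per mouse, and p-values measure the spread between these mice. Col10a1, Col17a1 and Col21a1 were not analysed here.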

Additional observations from a re-analysis of the deposited data

Results flagged for a closer look

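Each chain and pair named above was examined for a mouse far from the others of its group of 6, in 78 group checks. Dixon's test at 95% marked 5, where chance marks about 1 in 20. Treated male 93 had a log2 CPM of 2.29 for Col9a3, while the other treated males lay between 3.16 and 3.43. PBS male 82 had a log2 CPM of 1.04 for Col22a1, against 0.39 to 0.62 in the other PBS males, and a log2 count ratio of Col6a1 over Col6a2 of 1.65, against 2.28 to 2.43. Treated male 92 had a log2 count ratio of Col1a1 over Col1a2 of -1.09, against -0.47 to -0.19. PBS female 103, the library with the lowest length slope, had a log2 count ratio of Col4a1 over Col4a2 of 0.82, against -0.47 to -0.08.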

How the results depend on the processing

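No paired analysis was possible because the groups share no replicate numbers. The count of chains called higher, 1, became 0 without a sex term, with the library name form as a term, with the length slope as a term, with the length and GC trend removed, within either name form, and, in an alternative chosen after seeing the data, without PBS mice 103 and 90. Leaving out 1 mouse gave 0 to 2. The count called lower, 1, became 2 with the length and GC trend removed, and 0 with a minimum of 10 counts in every mouse, with the name form or the length slope as a term and within either name form. Leaving out 1 mouse gave 0 to 1. Calls over all genes, 5121, were 2912 without a sex term, 1903 with the name form as a term, 0 with the length slope as a term, 2610 with the length and GC trend removed, 0 within either name form, 2894 without mice 103 and 90, and 2211 to 6598 with 1 mouse left out. Mouse 90 gave 2211, mouse 98 gave 2919, mouse 88 gave 3065, mouse 81 gave 3198 and mouse 71 gave 3279 when left out. Higher calls among the 80 partner genes, 13, were 5 without mouse 90, 6 without mouse 71 or 88, 8 without mouse 72, 81 or 101, and 9 to 18 without any other mouse, and lower calls, 3, were 1 to 5. Those counts were 4 and 3 without a sex term, 6 and 1 with the name form as a term, 6 and 1 with the length and GC trend removed, 7 and 1 without mice 103 and 90, 17 and 5 in DESeq2, 15 and 2 in limma/voom, 13 and 4 with at least 10 counts in every mouse, and 0 and 0 with the slope as a term or within either name form. At an unadjusted p under 0.05 the fit with the length slope as a term had 1846 genes. For the chains, sex and the interaction gave 0 calls under each alternative that was run, including 0 to 0 with 1 mouse left out. Among the genes named here, estimates of called ones turned sign in 3 cases: Col25a1 (-0.035) and Timp2 (-0.025) in the 6 mice of the less common name form and Mmp15 (-0.040) with the length slope as a term. The median log2 fold change of the chains was 0.14, and it was -0.29 with the slope as a term and -0.19 with the length and GC trend removed. The cause of these changes was not tested. Depth limits the 11 chains with fewer than 10 counts in at least 1 mouse.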
